A study of Mus musculus with 24 samples.

Results

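The end of mouse chromosome 13, from position 119400001 of the GRCm38 assembly to the chromosome end at 120421639, held 522 of the 20726 windows that the authors listed as differing in 5-hydroxymethylcytosine (5hmC) between 2 embryonic stem cell (ESC) lines. Of these, 520 were listed as higher in the line AA10 and 2 as higher in the line Wt25. The members are all listed windows that start in this interval. The interval was chosen because listed windows are dense there, so the number and the direction of the members describe the choice and were not tested. Over the whole genome, 8630 windows were higher in AA10, 0.0652% of the 13237130 bins of 200 bp without unknown bases, and 12096 were higher in Wt25, 0.0914% of those bins. In the interval, 12.7% of 4107 such bins were higher in AA10 (95% Wilson interval 11.7 to 13.7). That share was the base of the choice and nothing is read from it.

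Both lines are mouse ESCs in which *Tet1*, *Tet2* and *Tet3* are all knocked out, on a mixed C57BL/6J and 129V background, grown in 2i medium with LIF. Wt25 carries lentiviral Flag-tagged human Tet3 in its wild-type form. AA10 carries the same protein with alanine in place of both catalytic-domain serines that the paper reports as cdk5 targets. Each line is 1 puromycin-selected clone, so the mutation and the clone cannot be told apart. DNA that carries 5hmC was pulled down with an antibody and sequenced (5hmC-DIP) in 3 libraries of each line, and the deposited lists give the bins called over all 6 libraries together. They hold positions and a gene but neither read counts nor *P*-values, so the depth and the replicate spread behind a window are unknown. The lists also hold no input values, so the number of copies of this DNA in each clone and the 5hmC level of each copy cannot be told apart. Expression was not analysed here, so the ESC label was not checked against marker genes.

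TET enzymes oxidise 5-methylcytosine to 5hmC, mostly where a cytosine is followed by a guanine (CpG). In ESCs, 5hmC is known to lie in gene bodies, at enhancers and at the edges of CpG-dense promoters, while the centres of such promoters are usually unmethylated. A 5hmC-DIP bin is counted only through reads that can be placed. The authors kept read pairs with a single place in the genome, so sequence that occurs more than once is seen only through pairs that reach a base in which its copies differ. Distal chromosome 13 holds both kinds of sequence, first a stretch of ordinary single-copy genes and then a field of copied sequence with the *Tcstv* genes and their relatives, a family known for expression in the early embryo.

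The borders of the listed stretch are carried by the following windows, each shown from 5′ to 3′ on the forward strand of GRCm38 with its CpGs in capitals. They are the first listed window of the interval, the window with most CpGs among those with no word found elsewhere and outside untranslated regions, the last window before *Tmem267*, the first window of the distal run and the last listed window. The window before *Tmem267* and the first window of the distal run were added after their values had been seen.
First window, intron of *Nnt*, chr13:119407803-119408000: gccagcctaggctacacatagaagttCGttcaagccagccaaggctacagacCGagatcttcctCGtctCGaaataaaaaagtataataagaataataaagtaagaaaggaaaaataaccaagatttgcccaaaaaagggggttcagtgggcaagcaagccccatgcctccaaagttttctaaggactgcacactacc
Most CpGs with no copied word, intron of *4833420G17Rik*, chr13:119463203-119463400: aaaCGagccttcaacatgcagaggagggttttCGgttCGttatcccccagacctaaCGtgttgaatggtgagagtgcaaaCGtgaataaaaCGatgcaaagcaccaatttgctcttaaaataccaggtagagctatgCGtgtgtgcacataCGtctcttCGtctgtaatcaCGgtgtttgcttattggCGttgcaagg
Last window before *Tmem267*, chr13:119487403-119487600: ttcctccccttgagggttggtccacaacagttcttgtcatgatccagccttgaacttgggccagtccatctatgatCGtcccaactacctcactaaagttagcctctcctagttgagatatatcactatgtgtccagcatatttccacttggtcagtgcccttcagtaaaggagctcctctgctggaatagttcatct
First window of the distal run, intron of *Gm20767*, chr13:120142403-120142600: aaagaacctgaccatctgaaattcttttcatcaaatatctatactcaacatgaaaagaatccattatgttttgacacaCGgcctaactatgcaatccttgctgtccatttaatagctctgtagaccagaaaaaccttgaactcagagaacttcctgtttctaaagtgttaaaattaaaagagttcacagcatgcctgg
Last window, intergenic, chr13:120290403-120290600: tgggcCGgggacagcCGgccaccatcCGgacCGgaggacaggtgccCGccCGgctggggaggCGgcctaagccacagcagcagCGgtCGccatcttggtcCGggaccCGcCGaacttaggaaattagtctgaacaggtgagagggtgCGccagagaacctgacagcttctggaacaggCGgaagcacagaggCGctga

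These windows differed in what they hold. The first window had 4 CpGs, and the window in *4833420G17Rik* had 11, and none of their words of 50 bases occurred at another place of the assembly. The last window before *Tmem267* had 1 CpG and was equally unique. The first window of the distal run also had 1 CpG, but 100% of its words occurred again elsewhere, at up to 3 places in all. The last window had 15 CpGs, lay entirely in sequence marked as repeat, and shared words with up to 4899 places. Throughout, a bin is called copied where more than 50% of its words of 50 bases occur elsewhere in the assembly on either strand, and unique otherwise.

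The members fell into 5 dense runs, each with at least 20 AA10 windows and no gap above 10000 bp between neighbours. The first run covered *Paip1* and *4833420G17Rik* (chr13:119425603-119487600) and held 141 windows, 45.5% of its 310 bins. The second, around *Ccl28* (chr13:119605003-119654200), held 70 windows or 28.5% of its bins. The third, from before *1700074H08Rik* through *Hmgcs1* into *Nim1k* (chr13:119674403-119742200), held 64 windows or 18.9%. The fourth, around *Zfp131* (chr13:119752403-119812400), held 47 windows or 15.7%. Over these runs, which are single-copy apart from a few bins, the listed share was highest at *Paip1* and *4833420G17Rik* and lower in each run further on. The fifth and longest run (chr13:120142403-120247600) started in *Gm20767* and held 171 windows, 32.5% of 526 bins, after 330002 bp in which 14 of 1650 bins were listed.

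**Figure D1:**
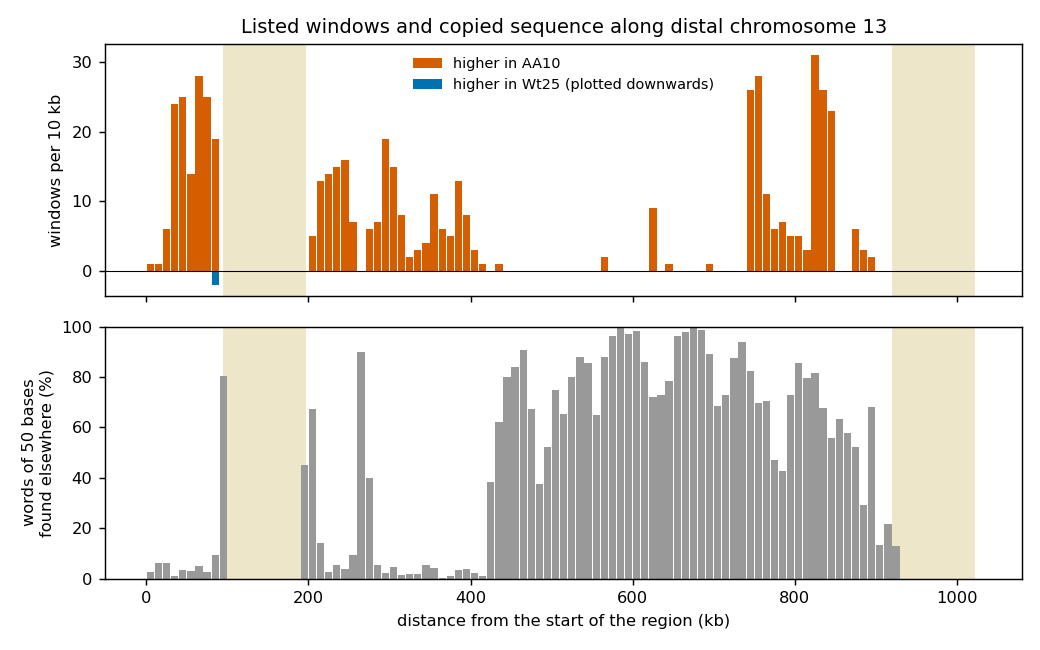
Upper panel: listed windows per 10 kb (AA10 upwards, Wt25 downwards) against the distance from the start of the interval in kb. Lower panel: mean percent of words of 50 bases found elsewhere. Shaded bands are the 2 stretches of 100000 unknown bases. The first 4 runs lie in mostly unique sequence, and the distal run lies at the far end of a copied field that is otherwise nearly empty of listed windows.

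The windows stood close together, which follows in part from the choice of the interval for its density. Joined where they touched, the 520 AA10 windows made 257 regions, and 25.8% of the windows touched no other. Among the AA10 windows of all chromosomes 72.3% touched no other. In touching groups of 3 or more stood 258 windows. The longest group held 14 windows (chr13:120225003-120227800) in intergenic sequence of the distal run. Each of them lay entirely in sequence marked as repeat, with 100% of its words copied and between 759 and 1309 places for its most frequent word, and how their reads were placed cannot be seen from the lists. The next held 12 (chr13:119437203-119439600) across the third exon of *Paip1*. Another group of 10 windows (chr13:119462003-119464000) covered the start of *4833420G17Rik*.

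The centromeric border lay near *Nnt*, which encodes a mitochondrial proton-pumping transhydrogenase. Of the 46 bins of *Nnt* inside the interval, 1 was listed. The AA10 window just inside the threshold of the interval was chr13:119407803-119408000, and the one just outside it was chr13:119394603-119394800, 13002 bp away. In the 1000000 bp before the interval there were 3 AA10 windows and 1 Wt25 window. After the first 2 members, 11602 bp without a listed window followed before the first dense run. The dense stretch therefore began after *Nnt*, in the intergenic sequence before *Paip1*.

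*Paip1* encodes a partner of the poly(A)-binding protein in translation. It held 65 AA10 windows among 160 bins, or 40.6%. In its longest curated RefSeq transcript, which has 11 exons, 9 of 21 exon bins and 55 of 138 intron bins were listed. The windows were not spread evenly along the gene. Intron 1 had 0 of 8 bins listed, intron 2 had 14 of 38, intron 3 had 11 of 13 and intron 4 had 14 of 25. From intron 5 to intron 10 the counts ran from 0 of 3 bins in intron 7 to 5 of 11 in intron 6. The last exon, 3336 bp long, had 7 of 17.

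*4833420G17Rik*, a protein-coding gene of unknown function, held 62 AA10 windows among 121 bins, or 51.2%. Among the RefSeq genes with up to 50% of words copied, this was the highest share. GENCODE places the transcript gene *Gm9752* inside it, with 9 of 15 bins listed (60%). Its exons and introns both carried them: 11 of 14 exon bins (78.6%) and 47 of 103 intron bins (45.6%) of a transcript with 13 exons were listed. Exon 4, with 647 bp, had 3 of 3 bins listed, and the last exon had 2 of 2. Exon 2 and intron 2 had 0 of 2 each. Every other intron had at least 3 listed bins, and intron 1 had 8 of 14.

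The first run ended at chr13:119487403-119487600, shortly before *Tmem267*, a gene of a transmembrane protein. The sequence there also holds *3110070M22Rik* on the other strand, non-coding in RefSeq and protein-coding in GENCODE, with 2 AA10 windows in its 6 bins. The only 2 Wt25 windows of the interval followed after 802 bp, side by side at chr13:119488403-119488600 and chr13:119488603-119488800. They lay in the CpG-dense start of *Tmem267* and held 33 and 14 CpGs. No AA10 window lay in the 39 bins between this run and the unknown bases that start at 119495506. So within 1 kb of the border the listed direction changed, at the most CpG-dense listed bin of the interval.

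*Tmem267* spans 122374 bp in RefSeq because its second intron holds 100000 unknown bases (119495506 to 119595505). Of its 111 known bins, 5 were listed in AA10, all in intron 2 after the unknown bases and all copied. The sequence on both sides of the unknown bases is partly the same. The block 119489458 to 119492223 aligned with 119603529 to 119606285 at 98.8% identity, and 119492272 to 119494874 with 119606287 to 119608892 at 99.6%. In the copies before the unknown bases 0 of 14 and 0 of 13 bins were listed, and in those after them 3 of 13 and 2 of 13. From the last window of the first run to the first of the second lay 17402 bp of known sequence without an AA10 window.

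*Ccl28*, a chemokine of mucosal epithelia, held 50 AA10 windows among 153 bins, or 32.7%. Its long first intron had 38 of 109 bins listed, intron 2 had 6 of 24 and the last exon 6 of 18. The bins of exons 1 and 2 were not listed. The Ccl28 run ended inside the gene, at 119654200, and 20202 bp without a window followed. Of the 101 bins there, 73 were copied. Another 22 were unique and held a CpG. The stretch was cut at the listed windows on either side, so the lack of listed bins in it follows from that choice.

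The third run began before the non-coding gene *1700074H08Rik*, which had 0 of 8 bins listed and was the only RefSeq gene that starts within the proximal stretch without an AA10 window. The pseudogene *Gm48300*, which only GENCODE lists there, had 0 of 2. *Hmgcs1*, the cytosolic HMG-CoA synthase of cholesterol synthesis, followed with 30 of 89 bins, or 33.7%. Intron 1 held 7 of 22, intron 2 held 12 of 23 and the last exon held 3 of 9. *Nim1k*, a kinase related to the AMPK family, lies on the other strand and held 22 of 229 bins, or 9.61%. Its large intron 1 had 12 of 135 bins listed, intron 2 had 5 of 66 and the last exon 3 of 14. The density per bin therefore differed between neighbours, with *Nim1k* under *Hmgcs1* on its one side and under *Zfp131* on its other.

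*Zfp131*, a zinc finger transcription factor, held 21 of 131 bins, or 16%. Introns 3 and 4 held 8 of 29 and 5 of 32, and introns 5 and 6 held 2 of 35 and 0 of 9. *Gm52026* and *Gm41077*, non-coding genes that overlap *Nim1k* or *Zfp131*, held 1 of 21 and 14 of 89 bins, and *Gm46390*, a predicted protein-coding gene at the start of *Zfp131*, held 1 of 7. GENCODE adds the antisense gene *Gm48342* at *Hmgcs1* with 8 of 31 bins and the non-coding *Gm48265* at the end of *Tmem267* with 4 of 18. Windows in overlapping genes are counted for each gene, and 5hmC-DIP cannot assign them to a strand. The fourth run ended at 119812400, before the small nuclear RNA gene *Gm23308*, whose single bin was not listed.

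**Figure D2:**
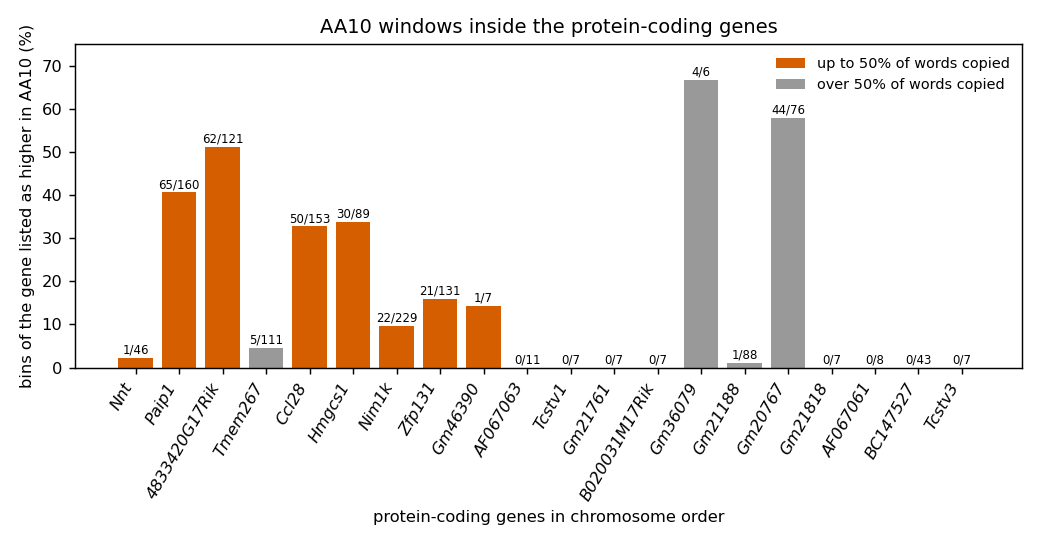
Percent of the bins of each protein-coding RefSeq gene that were listed as higher in AA10, in chromosome order, with listed bins over all bins above each bar and genes with over 50% copied words in grey. *4833420G17Rik* stands highest among the genes of unique sequence with 62 of 121 bins, and *Gm20767* with 44 of 76 and *Gm36079* with 4 of 6 stand highest among those plotted in grey.

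In the proximal stretch (119425603 to 119812400), 322 of all 1433 bins were listed in AA10 (22.5%) and 2 in Wt25, so most bins were not listed. Bins with at least 10 CpGs, many of them at gene starts, numbered 45. Of the 45, 6 were listed in AA10, 2 in Wt25 and 37 in neither. Some of the 45 lay in coding exons, introns or intergenic sequence away from a start. Within 500 bp of the start of *Paip1*, 1 of 5 bins was listed in AA10, with 28 CpGs, and the bins of 31 and 32 CpGs beside it were not. *Hmgcs1* and *Zfp131*, with means of 13.6 and 21.2 CpGs per bin at their starts, had 0 of 5 listed, as had *Ccl28* with 2.4. *Nim1k* had 2 of 5. *4833420G17Rik* differed from these, with 5 of 5 start bins listed at a mean of 9.8 CpGs. These are the starts of the longest curated transcripts, and no other of them in the proximal stretch was listed throughout. That of *Tmem267* held 1 of the 2 Wt25 windows within this distance. Further starts were not counted in this way, and AA10 windows lay in promoters of some, such as those inside *Ccl28* and that of *Gm46390*.

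By the position of the window midpoint, 365 of the 520 AA10 members (70.2%, 66.1 to 74) took a feature of a RefSeq gene, with the 1000 bp before a start and after an end counted to the gene. This compares with 40.6% of the 3585 unlisted bins of the interval and 59.3% of the 8110 AA10 windows elsewhere. Within the stretches the gap was smaller, with 89.4% of members against 74.6% of unlisted bins in the proximal stretch and 38.8% against 24.6% beyond it. Introns held 240 members, promoters 45, termination sites 25, coding exons 22, 3′ UTRs 16, non-coding exons 11 and 5′ UTRs 6. In the proximal stretch, 18 of 42 coding exon bins were listed (42.9%), 33 of 105 promoter bins (31.4%), 16 of 54 bins of 3′ UTRs (29.6%) and 200 of 813 intron bins (24.6%). Intergenic bins there were listed in 34 of 316 cases, or 10.8%. Coding exon bins also held more CpGs than intron bins, 4.55 against 1.84 on average, and the part of CpG number in the difference was not tested.

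Many windows lay outside the gene deposited with them, and some of those lay in no gene. All 520 AA10 members carry a deposited gene, 15 genes in all. By GENCODE gene bounds, 228 windows lay inside the gene named with them and 292 outside. Of the 520, 163 were intergenic by GENCODE, so no gene held them. *AF067061* was named for 92 windows, the most of any gene, and 0 of them lay inside it; they lay 10784 to 55413 bp away. *Tmem267* was named for 29 windows with 0 inside. *Gm20767* was named for 86, of which 44 lay inside. *Gm21818*, a gene within the distal run with a mean of 49.2% copied words, was named for none and held 0 windows in its 7 bins.

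Nearly all listed windows held a CpG, in both kinds of sequence. In the proximal stretch 2 of 302 bins without a CpG were listed (0.662%), and in the distal run 1 of 178 (0.562%). With 1 CpG the shares were 26.3% and 38.6%, and with 2 CpGs 33.2% and 53.4%. Above that the stretches parted. Bins with at least 8 CpGs were listed in 7 of 67 cases (10.4%) in the proximal stretch and in 15 of 21 (71.4%) in the distal run. The classes are not alike, with up to 33 CpGs in a proximal bin and at most 13 in a bin of the distal run. Most of the 15 listed bins lay close together, between 120221203 and 120232600, and several of them entirely in sequence marked as repeat. Over all AA10 members the mean was 3.02 CpGs (SD 2.76, n = 520), against 1.91 (SD 2.87, n = 3585) in unlisted bins of the interval and 3.17 (SD 2.33, n = 8110) in AA10 windows elsewhere. The mean GC content was 43.5% in the members, 42.9% in the unlisted bins and 46% in AA10 windows elsewhere.

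**Figure D3:**
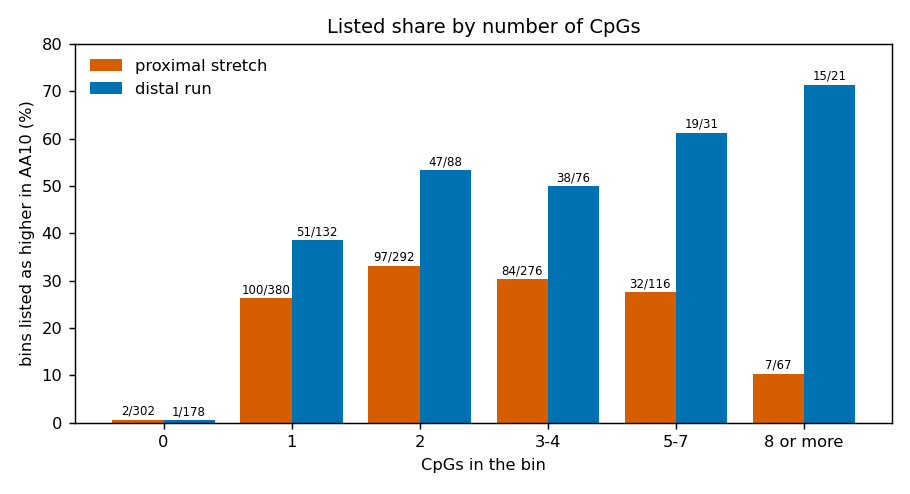
Percent of bins listed as higher in AA10 by the number of CpGs in the bin, for the proximal stretch and the distal run, with listed bins over all bins above each bar. Bins without a CpG were hardly listed in either, and the most CpG-dense bins were listed in 7 of 67 cases in the proximal stretch and 15 of 21 in the distal run. That last class reached 33 CpGs in the proximal stretch and 13 in the distal run, where most of its listed bins lay close together.

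Of the 520 AA10 members, 160 were copied (30.8%, 27 to 34.9) and 284 shared no word with another place. Unlisted bins of the interval were copied in 53.2% of cases and AA10 windows elsewhere in 11.3%. The members divide sharply by place. In the proximal stretch 16 of 322 members were copied (4.97%), while beyond 119812400 the figure was 144 of 196 (73.5%), close to the 74.5% of unlisted bins there. In the distal run alone, 32.6% of 386 copied bins and 32.1% of 140 unique bins were listed. Copied members had 2 places per word in the median. In 97 of the 160, over 50% of the copied words had all of their places inside the interval. The largest number of places of a word, 205752, was in the window chr13:119652603-119652800 in the 3′ UTR of *Ccl28*.

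The copied field is built as mirrored arms. The block 119967258 to 120019001 aligned in inverted orientation with 120043557 to 120095256 over 51793 columns at 99.3% identity, and further inverted pairs lay on both outer sides. In this innermost pair, 0 of 259 and 1 of 258 bins were listed. Further outwards, the pairs 119953113 to 119962082 with 120100386 to 120109360, 119935812 to 119953127 with 120116351 to 120133655 and 119927715 to 119935841 with 120133679 to 120141804, had no listed bin on either side. In these pairs few bins were unique, at most 13 a side. The part of this in their lack of listed bins was not tested. A pair nearer the centre, 119962127 to 119968013 with 120094551 to 120100448 (99.2% identity), was the exception, with 2 of 29 and 1 of 29 bins listed. There the listed window chr13:119965003-119965200, with 13 CpGs, aligned with 120097376 to 120097573 at 99% identity. Of the 2 bins over that mirrored sequence, 1 was listed, chr13:120097403-120097600 with 9 CpGs. The adjoining listed window chr13:119965203-119965400, with 9 CpGs, aligned with 120097167 to 120097373 at 94.7% identity. Over that mirrored sequence 0 of 2 bins were listed. *Gm20784*, *B020031M17Rik*, *Gm41080*, *Gm36161*, *Gm21370*, *Gm31544*, *Gm41081* and *Gm21378*, all pseudogenes, non-coding genes or small family members, lie in this part with 0 windows inside.

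The distal run began where these blocks change. An inverted block from 120142353 to 120160939, with its copy at 119906428 to 119925007, starts next to the first window of the run (chr13:120142403-120142600). Altogether, 9 inverted blocks of 96.8 to 99.2% identity paired the run (120142353 to 120246303) with a first arm nearer the centromere (119826675 to 119939931). In these blocks of the run, which hold 123 of its 171 windows, 123 of 439 bins were listed (28%). In the aligned blocks of the first arm, 0 of 443 were, and 1 listed window (chr13:119835803-119836000) lay between those blocks. The values below are for the aligned blocks alone. The arms were alike in the features that the reference sequence gives, with means of 1.39 and 1.37 CpGs per bin and 69.2% and 69.3% of words copied. Among bins that were unique and held a CpG, 38 of 85 were listed in the run (44.7%) and 0 of 71 in the first arm. With words of 100 bases, 256 bins of the run and 255 of the first arm were unique, with 78 and 0 listed. The members were chosen by the lists, so the pair of values is given without a test.

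**Figure D4:**
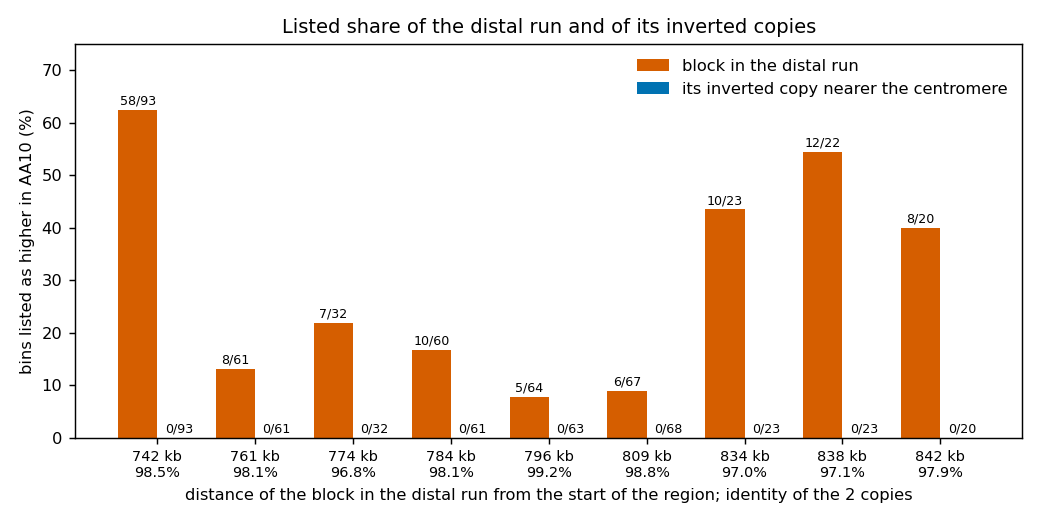
Percent of bins listed as higher in AA10 in the 9 blocks of the distal run and in their inverted copies nearer the centromere, by distance of the block from the start of the interval, with the identity of each pair below and listed bins over all bins above. Every block of the run held listed bins, from 5 of 64 to 58 of 93, and every copy held none.

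How closely the copies match is shown by a listed window of the run, chosen after the values were seen as the unique window with most CpGs of the first block that has full-length copies, with its copies. Capitals mark the bases of each copy that differ from the listed window. The listed window lies 87 bp before a start of *Gm20767*, and its copies lie 120 bp before the starts of *Gm21761* and *AF067061*, so all 3 lie before a start site.
Listed window, chr13:120153603-120153800, forward strand: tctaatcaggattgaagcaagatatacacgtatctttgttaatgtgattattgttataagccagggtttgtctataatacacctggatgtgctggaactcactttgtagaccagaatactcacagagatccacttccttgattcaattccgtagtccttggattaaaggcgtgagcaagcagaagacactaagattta
Copy in the first arm, chr13:119913588-119913785, reverse strand: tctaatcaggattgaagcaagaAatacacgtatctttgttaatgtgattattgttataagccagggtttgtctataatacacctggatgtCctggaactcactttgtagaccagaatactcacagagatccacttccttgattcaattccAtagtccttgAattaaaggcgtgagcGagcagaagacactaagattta
Direct copy after the run, chr13:120262778-120262975, forward strand: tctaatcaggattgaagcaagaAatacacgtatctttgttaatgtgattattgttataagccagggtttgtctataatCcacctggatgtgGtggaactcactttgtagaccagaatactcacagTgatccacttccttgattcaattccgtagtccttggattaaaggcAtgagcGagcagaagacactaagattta

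The copy in the first arm differed at 5 of 198 bases and the direct copy at 6. Each of the 3 sequences held 3 CpGs, but not all at the same bases. Each copy lacked a CpG of the listed window and held another where the listed window has none. Only 18.8% of the words of the listed window occurred elsewhere. No AA10 window overlapped either copy. These sequences are of the reference strain, and those of the mixed strain background of the 2 clones were not analysed here.

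The run was itself uneven. The block 120142353 to 120160939 had 58 of 93 bins listed (62.4%), and the blocks at its far end, 120233829 to 120238334, 120238179 to 120242649 and 120242414 to 120246303, had 10 of 23, 12 of 22 and 8 of 20. Among the aligned blocks between these, the share fell to 7.81% (5 of 64 bins) in 120196292 to 120208906, which has the highest identity to its copy, 99.2%. In that block 6 of the 64 bins were unique, so a smaller 5hmC difference and fewer placeable reads cannot be told apart. The 10000 bp from 120220001 to 120230000, mostly outside the aligned blocks, had 31 of 50 bins listed. That was the most of any 10000 bp segment of the interval, and the longest touching group lies there. *Gm20767*, a protein-coding gene whose last exons lie in a block that aligned with that of *Tcstv1* at 85.7% identity, opened the run. It held 44 windows among 76 bins (57.9%), with 37 of 66 bins of intron 1, all 3 bins of intron 2 and 3 of 4 bins of its last exon. Exon 1 had 0 of 2. Inside the run, the pseudogenes *Gm20769*, *Gm52031* and *Gm20763* held 1 of 1, 2 of 3 and 4 of 9 bins, and the non-coding *Gm39477* held 4 of 19. GENCODE adds the protein-coding genes *Gm21731*, with 8 of 11 bins listed (72.7%) and a mean of 70.3% copied words, and *Gm21762*, with 0 of 7.

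A direct copy of the start of the run lies just beyond its end. The sequence from 120142353 to 120171468 returned at 120251520 to 120281062 in 3 blocks of 97.5%, 96.8% and 97.2% identity. In the run these blocks held 65 of 145 listed bins (44.8%) and in the copy 5 of 146 (3.42%). The copy held more unique bins, 56 against 26. The first 2 blocks of the copy had 0 of 93 and 0 of 26 bins listed against 58 of 93 and 3 of 25 in the run, while the third had 5 of 28 on both sides. Those first 2 blocks lie in the 27602 bp without a window after the run. A run ends where such a gap exceeds 10000 bp, so part of their lack of listed bins follows from that cut. *AF067061*, *Gm46399* and *Gm52032* lie in the unlisted blocks with 0 windows inside, and *Gm39470* lies in and beyond the third with 5 of 25 bins.

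Outside the dense runs, 25 members lay beyond the proximal stretch. Between 119812401 and 120142402, 14 windows were listed, of which 13 were copied and 1 lay mostly in sequence marked as repeat. They were rich in CpGs, with a median of 9 and a range of 2 to 16. Of these, 9 stood together at chr13:120026203-120029400, over *Gm36079* with 4 of 6 bins listed and the sequence before it, in words with up to 24 places. The others were a window near *AF067063* with 7 CpGs, a pair after *Gm20784* with 13 and 9, a window at the start of *Gm31544* with 16, inside *Gm21188*, and a window after *Gm21378* with 9. *AF067063*, *D13Ertd608e*, *Gm21358*, *Tcstv1*, *Gm21761* and *Gm21181*, which lie between members, held 0, as did *Gm37619* of GENCODE, and *Gm22108* and *Gm24798* were too small to hold the midpoint of a bin. After the distal run, where 41.9% of bins were copied, 11 windows were listed, of which 5 were copied. They had a median of 4 CpGs, and the last ended 31039 bp before the unknown bases of the chromosome end. *BC147527*, *Gm20900* and *Tcstv3*, the last annotated gene, lay beyond it with 0 windows.

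The densities of these runs are set beside those of other dense AA10 runs as a description, since all were picked for their density. Of 22 AA10 runs of at least 20 windows over all chromosomes, 5 were these, with 493 windows. The other 17 held between 0.297 and 2.74 windows per kb. In 14 of those, under 50% of windows were copied and the density was 1.06 per kb at most, while the runs around *Paip1* and *Ccl28* had 2.27 and 1.42 with 2.84% and 11.4% copied. The runs around *Hmgcs1* and *Zfp131*, with 0.944 and 0.783, lay within that range. The distal run, with 1.63 per kb and 73.7% copied, stood beside 3 runs elsewhere with over 50% copied, on chromosomes 1, 7 and 12, at 2.74, 1.38 and 2.18 per kb. In the last 1021639 bp of the 20 other chromosomes, between 0 and 10 AA10 windows were listed, with a median of 0. On the rest of chromosome 13, 314 of 1024 windows were higher in AA10 (30.7%), against 41.6% of all 20726 and 99.6% of the members.

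**Figure D5:**
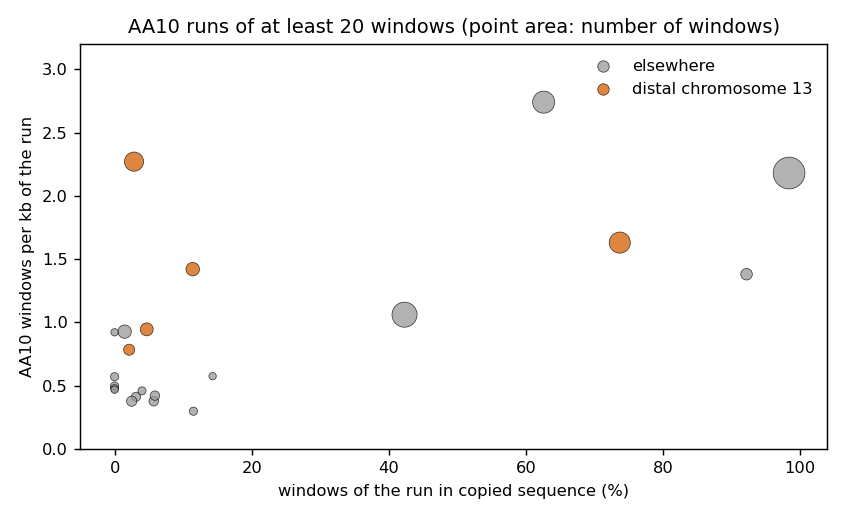
AA10 windows per kb against the percent of windows in copied sequence for the 22 AA10 runs of at least 20 windows, with the area of a point proportional to its number of windows. The 4 single-copy runs of distal chromosome 13 stand at the left, 2 of them above all other runs with under 50% copied, and the distal run, at 1.63 per kb, lies between the copied runs of chromosomes 7 and 12.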

How the data were processed

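5hmC-DIP was sequenced in 3 libraries of each line. Per the study's methods, the authors aligned reads with STAR to GRCm38 with unique placement only and took out duplicates with Picard. They called bins of 200 bp with MEDIPS by cut-offs on a *P*-value and on fold change. For these *P*-values the methods state no correction for the number of bins. They then removed bins under peaks of IgG pull-down data or in simple repeats, and named a gene with HOMER. Tool versions are not given in the sources used here. The deposited lists hold positions in no further unit, 198 bp per window within a bin, with no count, so depth, replicate error and *P*-values are not given. How many bins MEDIPS tested is not in the lists, so all bins without unknown bases serve as the denominator.

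Positions were matched to the GRCm38.p6 genome and its RefSeq annotation, with GENCODE vM21 as the alternative. Features were given by window midpoint, first match of promoter (1000 bp before to 100 bp after a start), termination site, coding exon, UTRs, non-coding exon, intron and intergenic sequence. Exons and introns were counted on the longest curated transcript of a gene. Words of 50 bases were counted exactly on both strands of the primary assembly. The interval was aligned with itself by BLAST 2.17.0 (minimum 80% identity, blocks of at least 3000 bp, 1000 bp beside the unknown bases, 95% for the arms). CpGs and lower-case repeat marks came from the genome. Python 3.11.15, numpy 2.4.6, numba 0.67.0, scipy 1.17.1 and matplotlib 3.10.9 were used, and 27 of 27 checks on simulated sequence gave the known answer. Wilson intervals cover the number of bins only, and neighbouring bins are not independent.

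The named genes are all RefSeq genes of the interval with a member, those between members and those beyond the last, and 7 genes that GENCODE adds. The interval, the genes, the settings and the alternatives were chosen with earlier results of these data known. RNA-seq, H3K27ac, MNase and input libraries were not analysed here.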

Additional observations from a re-analysis of the deposited data

How the results depend on the processing

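The 520 AA10 windows became 257 regions when touching windows were joined and 98 when windows within 1000 bp were joined. The listed share of 12.7% rose to 17.7% over unique bins and to 18% over bins with a CpG. The copied share of 30.8% was 38.3% with words of 32 bases, 19.4% with words of 100, 45.4% where 1 copied word sufficed, 13.7% where every word had to be copied and 24.5% with touching windows joined. Counting copies in alternate loci and patches, an alternative chosen after seeing the data, left it at 30.8%. The share with a gene feature, 70.2%, was 68.7% by GENCODE and 64% by overlap with a gene without flanks. The mean of 3.02 CpGs was 2.74 in unique windows and 3.09 in windows with under 50% repeat. The run with most windows spanned 105198 bp with gaps of up to 10000 or 20000 bp, 193198 bp with gaps of up to 50000 bp and, with gaps of up to 5000 bp, was the first run with 61998 bp.

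No paired analysis was possible because the lists pool the libraries, and for the same reason leaving out a replicate was not possible. Without read counts, a window that is not listed cannot be read as equal between the lines, in copied sequence above all.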
